A study of Mus musculus with 36 samples.

Results

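The genes described here are 37 cyclins and genes of mitosis, chosen by name, and their expression was followed in mouse liver with and without repeated chemical injury. These genes, and the other lists below, were chosen with earlier results of these data known. A gene was measured where at least 1 probe set of the array was annotated to its symbol alone, and 36 of the 37 were found, among 23141 measured genes. Ccnb1 was not analysed here. The 36 arrays, 1 per mouse liver, came from C57BL/6 mice labelled female and aged 10 to 12 weeks. The mice were either null for Dpt, which encodes the matrix protein dermatopontin, or wild-type (WT) littermates. Carbon tetrachloride (CCl4), which hepatocytes convert into a toxic radical, was injected under the skin at 0.1 ml/kg, 3 times a week for 8 weeks, in a solution raised from 2% in the first week through 4%, 5% and 6% to 8% in weeks 5 to 8. Controls received olive oil, and each liver was collected 24 hours after its final injection. There were 8 WT and 10 Dpt-null (KO) libraries after oil and 9 of each genotype after CCl4. How the null allele was made is not given in the sources used here.

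Cells enter the cycle when D-type cyclins with their kinases release E2F factors, cyclin E and cyclin A then drive DNA replication, and cyclin A and cyclin B with CDK1 drive mitosis. The spindle checkpoint holds sister chromatids together until every kinetochore is attached, after which the anaphase-promoting complex marks securin and cyclin B for destruction and the cell divides at the spindle midzone. Hepatocytes of adult liver are mostly quiescent and re-enter the cycle after injury, and macrophages and stellate cells also divide in injured liver. The libraries are of whole liver, so more cells of a dividing type and more RNA per cell cannot be told apart.

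Many genes of mitosis carry a cell cycle homology region (CHR) and CCAAT boxes near their start, the former a binding site of the DREAM and MYB-MuvB complexes and the latter of NF-Y. RefSeq windows (GRCm38.p6, 250 bases before to 50 bases after the start) were given for 27 of the 36 genes, as 29 windows. The letters TTTGAA, the core of a CHR, stood on 1 strand or the other in 69.0% of these windows and in 17.9% of 32851 windows of all genes. The letters CCAAT were found in 72.4% and 37.4%, and both together in 62.1% and 7.0%. An E2F site, searched on both strands as TTTGGCGC, TTTCGCGC or GGCGGGAA, was found in 3.4% and 3.0%. The 16 genes with CHR and CCAAT letters were Aurka, Bub1b, Ccnb2, Cdc20, Cdk1, Cenpf, Ect2, Hmmr, Kif11, Kif23, Mki67, Plk1, Prc1, Top2a, Ttk and Ube2c. Birc5, Ccne1, Mad2l1, Melk, Nusap1 and Tyms held neither in this window, and Aurkb, Ccna2, Ccnd1, Ccnd2, Ccne2, Cdc25c, Foxm1, Kif20a and Tpx2 had no window.

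The 250 bases before the start of 6 genes are shown, 5′ to 3′, with TTTGAA and CCAAT in capitals on either strand (reverse TTCAAA and ATTGG). Mki67, Top2a and Cdk1 rose after CCl4 in both genotypes and Ube2c in KO, whereas Ccnb2, with the same letters, and Tyms, with neither, were called in no comparison.
Mki67, chr7:135716380-135716629, minus strand: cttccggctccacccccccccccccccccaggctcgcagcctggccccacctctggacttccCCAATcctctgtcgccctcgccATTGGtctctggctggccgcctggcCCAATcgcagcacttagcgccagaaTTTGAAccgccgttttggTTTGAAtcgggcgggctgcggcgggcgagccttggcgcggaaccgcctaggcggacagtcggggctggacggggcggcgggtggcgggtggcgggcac
Top2a, chr11:99024190-99024439, minus strand: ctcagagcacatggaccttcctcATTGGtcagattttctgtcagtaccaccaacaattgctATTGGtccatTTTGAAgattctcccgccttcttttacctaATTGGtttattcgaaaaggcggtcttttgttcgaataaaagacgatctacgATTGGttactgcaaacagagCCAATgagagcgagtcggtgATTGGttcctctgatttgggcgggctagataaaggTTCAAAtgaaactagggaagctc
Cdk1, chr10:69352913-69353162, minus strand: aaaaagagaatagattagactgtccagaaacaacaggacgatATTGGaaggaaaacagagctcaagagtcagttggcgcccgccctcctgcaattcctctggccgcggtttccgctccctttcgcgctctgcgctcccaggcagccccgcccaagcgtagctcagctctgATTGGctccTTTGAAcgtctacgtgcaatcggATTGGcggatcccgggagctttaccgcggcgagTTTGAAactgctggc
Ccnb2, chr9:70421555-70421804, minus strand: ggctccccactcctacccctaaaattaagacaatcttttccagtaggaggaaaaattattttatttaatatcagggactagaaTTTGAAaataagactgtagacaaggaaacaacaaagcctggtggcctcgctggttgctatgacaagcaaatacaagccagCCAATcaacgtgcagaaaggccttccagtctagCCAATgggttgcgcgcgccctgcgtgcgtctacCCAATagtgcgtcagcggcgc
Ube2c, chr2:164769679-164769928, plus strand: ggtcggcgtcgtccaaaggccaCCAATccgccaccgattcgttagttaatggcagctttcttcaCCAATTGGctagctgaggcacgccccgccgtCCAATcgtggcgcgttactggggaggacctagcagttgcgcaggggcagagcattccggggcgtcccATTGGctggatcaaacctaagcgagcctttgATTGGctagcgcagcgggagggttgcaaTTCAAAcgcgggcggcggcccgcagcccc
Tyms, chr5:30073626-30073875, minus strand: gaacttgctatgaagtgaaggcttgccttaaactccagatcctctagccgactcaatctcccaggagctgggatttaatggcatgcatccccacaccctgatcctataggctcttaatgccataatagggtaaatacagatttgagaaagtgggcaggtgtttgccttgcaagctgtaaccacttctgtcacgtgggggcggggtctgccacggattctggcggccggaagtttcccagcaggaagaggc
Top2a and Ube2c each held 6 CCAAT boxes, counted on both strands, of which 1 pair in Ube2c overlaps as CCAATTGG. The E2F letters in the Cdk1 stretch are left in lower case. A match of letters describes the sequence and is not evidence of binding in these livers.

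Some libraries did not match their labels or carried RNA of other tissues. Counts of called genes, and the values of some genes, are given with and without them. The other values are of all libraries. Dpt, read as a check of genotype, was 5.59 to 6.48 in WT after oil and 3.00 to 3.86 in KO after CCl4, but 7.40 in KO oil library 10 and 3.18 in WT CCl4 library 1, so 2 libraries went against their genotype labels. KO oil library 10 also had a macrophage marker mean of 7.43, inside the 6.54 to 7.98 of KO after CCl4 and above its own group's median of 4.69. All mice were labelled female, yet 6 oil libraries (WT 1, 2 and 3, and KO 1, 3 and 4) expressed Y-linked genes, and none after CCl4 did. Xist, the RNA of X inactivation, was 2.94 to 4.45 in these 6 and 9.295 or more in every other library. By both checks these 6 read as male, so sex was not balanced between oil and CCl4. Pancreas, skeletal muscle or adipocyte markers were raised in 7 libraries, 5 of them WT after CCl4 (3, 4, 5, 8 and 9), with KO oil library 10 and KO CCl4 library 5. Hepatocyte markers averaged 10.68 or more in every oil library, and periportal hepatocyte markers were lowest in WT CCl4 library 3 (5.72) and KO CCl4 library 5 (5.46). The 2 libraries against their labels, the 6 with Y-linked expression and these 2 are called the 10 libraries in doubt. The median log2 signal of an array lay between 4.11 and 4.38.

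The comparison of CCl4 with oil asked whether cell division genes respond to repeated injury in each genotype. In WT, 10 of the 36 genes rose and 0 fell at an adjusted p under 0.05 over all genes, against 13.2% of all genes rising, 11.3% falling and 24.5% called in either direction. The risers were Mki67, Top2a, Ect2, Ccnd2, Nusap1, Prc1, Mad2l1, Cdk1, Tpx2 and Bub1b. In KO, 29 rose and 0 fell, where 13.4% of all genes rose, 9.89% fell and 23.3% were called. The difference was positive for 35 genes in WT and for all 36 in KO, beside 43.2% and 42.4% of all genes. The median log2 fold change was 0.36 in WT and 0.56 in KO, beside -0.04 for all genes in both. Each of the 10 genes that rose in WT also rose in KO, 19 rose in KO but were not called in WT, and 7 (Ccnd1, Ccne2, Ccnb2, Cdc25c, Cdc20, Cenpf and Tyms) were called in neither. Whether the response differed between genotypes was tested separately and no gene of the 36 passed. Without the 6 libraries with Y-linked expression the counts were 6 in WT and 22 in KO, with 4 and 7 calls lost. Without the 7 with other tissue markers they were 10 and 31, with 3 lost and 3 gained in WT. Without the 10 libraries in doubt 4 calls were lost and 2 gained in WT, and 4 lost and 1 gained in KO. Shares of all genes in these refits are not given here, so these counts have no background beside them. With all libraries, 9 of 10 macrophage markers rose in WT (median 1.71) and 10 of 10 in KO (median 2.24), and 6 of 8 stellate cell markers rose in each. The part of these cells in the values below was not tested.

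**Figure D1:**
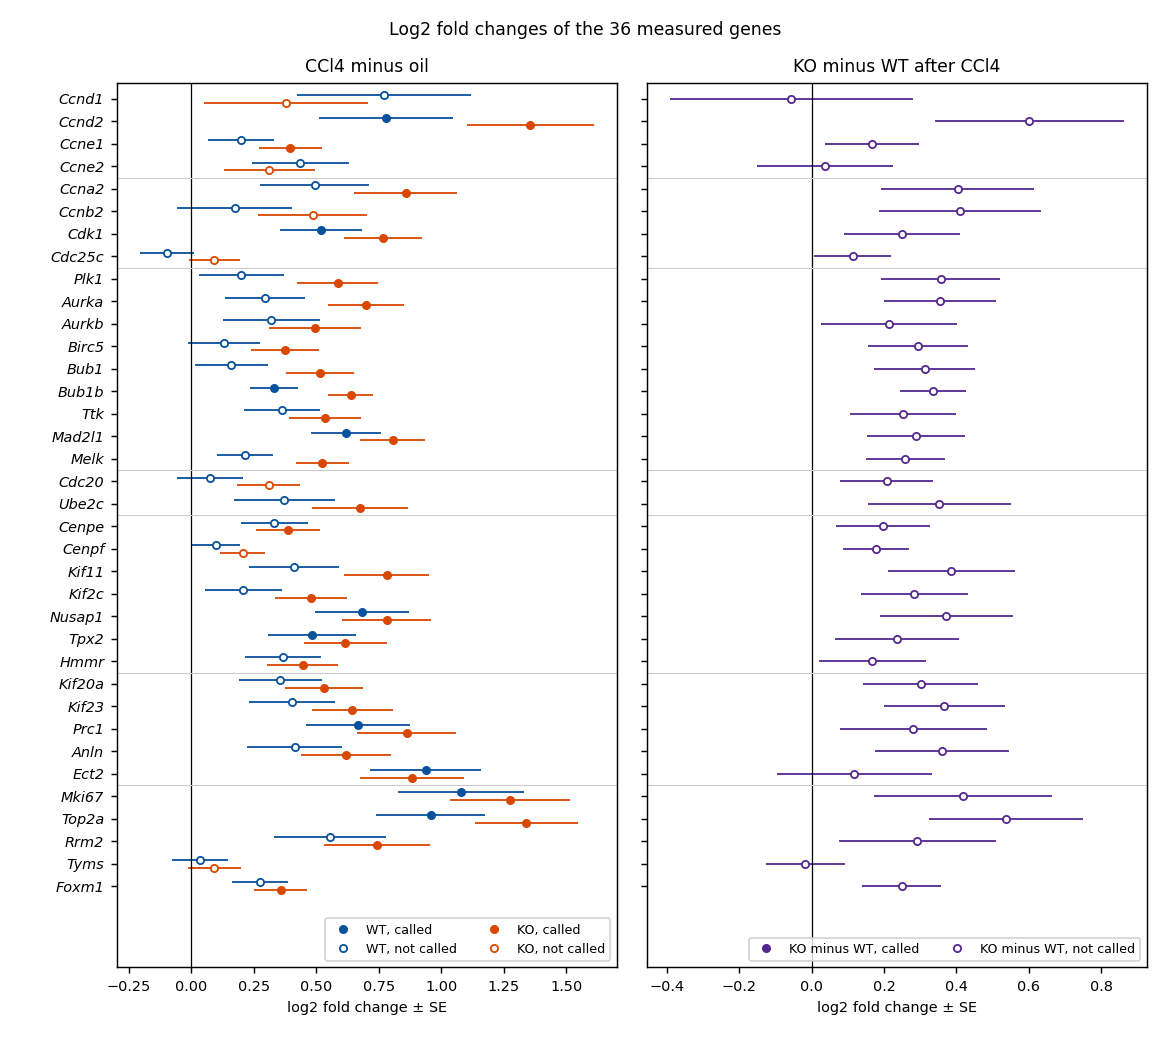
Log2 fold change (x axis) of each of the 36 genes, ordered by role, with its standard error. The left panel gives CCl4 minus oil in WT (blue) and KO (orange), and the right panel KO minus WT after CCl4; filled points passed the adjusted p of 0.05 over all genes (10 in WT, 29 in KO, 0 between genotypes).

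The proliferation antigen Mki67, which coats chromosomes in dividing cells and is lost in quiescent ones, changed most in WT. Its log2 signal ran from 4.00 to 4.72 (median 4.34) in WT after oil and from 4.58 to 6.27 (median 5.54) after CCl4. In KO it ran from 4.09 to 5.58 (median 4.44) after oil and from 4.76 to 6.88 (median 5.94) after CCl4. Every CCl4 library lay above its genotype's oil mean, while the ranges overlapped. In WT only CCl4 library 7 lay below the highest oil library, and in KO CCl4 libraries 2, 8 and 9 did, that oil library being number 10. Mki67 rose by 1.08 ± 0.25 in WT (log2 fold change ± SE, 9 against 8 libraries, limma, adjusted p = 0.0022), a 2.11-fold change, and by 1.27 ± 0.24 in KO (9 against 10, adjusted p = 1.4e-04), a 2.42-fold change. Without the 10 libraries in doubt the rises were 1.06 and 1.34 (adjusted p = 0.0087 and 3.3e-04).

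Top2a, the topoisomerase that untangles sister chromatids, ran from 3.23 to 3.90 (median 3.49) in WT after oil and from 3.76 to 5.04 (median 4.70) after CCl4. In KO the same values were 3.37 to 4.60 (median 3.51) after oil and 3.97 to 5.80 (median 5.10) after CCl4. Only oil library 10 kept the KO groups from separating, since the other 9 oil libraries reached no higher than 3.87. The rise was 0.96 ± 0.22 in WT (adjusted p = 0.0017) and 1.34 ± 0.21 in KO (adjusted p = 1.0e-05), the latter 1.44 without the 2 libraries against their labels (adjusted p = 6.8e-07). Rrm2, a subunit of the ribonucleotide reductase that supplies deoxynucleotides, was 3.93 to 5.12 (median 4.56) in KO after oil and 4.18 to 6.01 (median 5.21) after CCl4, and rose there by 0.74 ± 0.21 (adjusted p = 0.0089). In WT, where Rrm2 ran from 4.13 to 4.88 (median 4.38) after oil and from 4.10 to 5.98 (median 4.81) after CCl4, the difference was 0.55 ± 0.22 (adjusted p = 0.066). Foxm1, a transcription factor of late cell cycle genes, rose by 0.36 ± 0.11 in KO (adjusted p = 0.012) and differed by 0.27 ± 0.11 in WT (adjusted p = 0.072). Tyms, the enzyme that makes thymidylate, differed by 0.04 ± 0.11 in WT and 0.09 ± 0.11 in KO, with 95% intervals of -0.19 to 0.26 and -0.12 to 0.31.

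**Figure D2:**
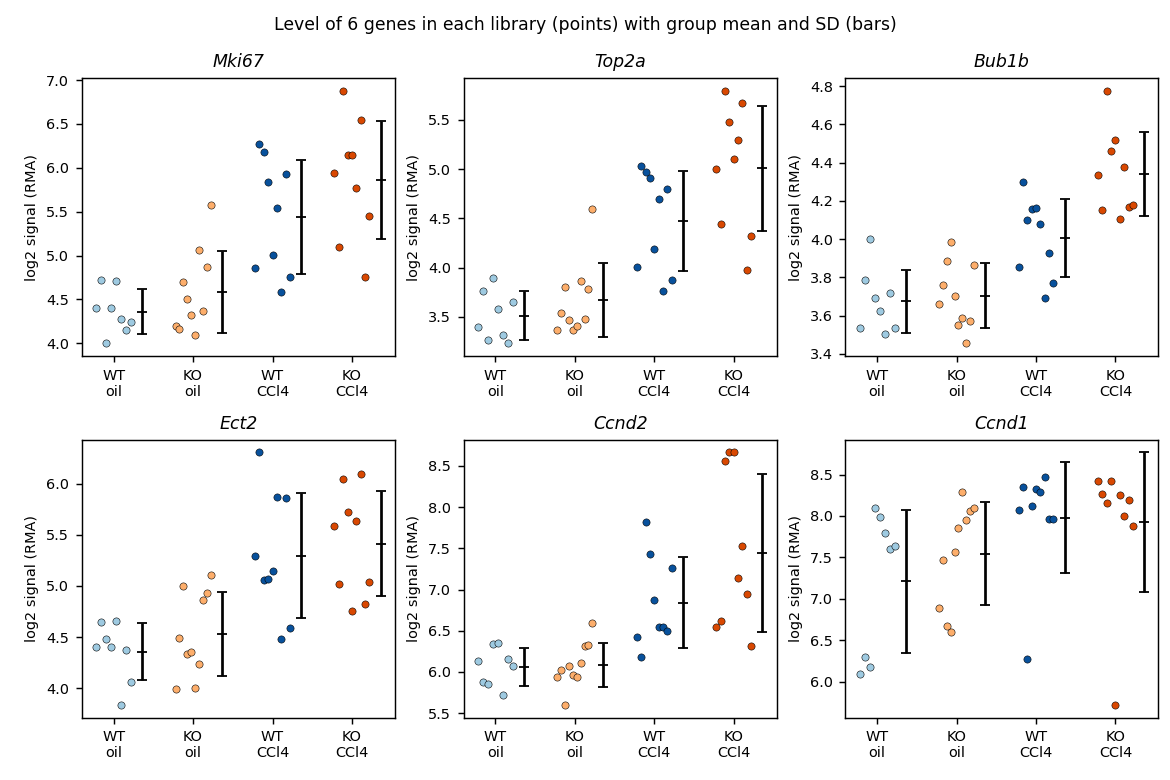
Log2 RMA signal (y axis) of Mki67, Top2a, Bub1b, Ect2, Ccnd2 and Ccnd1 in each library, by group, with the group mean and SD as bars. Bub1b separates KO after CCl4 from KO after oil (4.10 to 4.78 against 3.46 to 3.99), and Ccnd1 falls into a high and a low set within the oil groups.

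Among the G1 cyclins, the partners of CDK4, CDK6 and CDK2 that carry cells into S phase, 2 of 4 rose in KO and 1 of 4 in WT. Over all genes 13.4% rose in KO and 13.2% in WT. Ccnd2, cyclin D2, ran from 5.72 to 6.35 (median 6.10) in WT after oil and from 6.18 to 7.82 (median 6.55) after CCl4. In KO it ran from 5.60 to 6.59 (median 6.05) after oil and from 6.32 to 8.67 (median 7.14) after CCl4. KO CCl4 libraries 3, 4 and 5 were highest, at 8.55, 8.67 and 8.67. In WT the highest were CCl4 libraries 3, 4 and 9, at 7.82, 7.43 and 7.26, all of which carried markers of other tissue, and WT CCl4 library 2, the highest of its group in 28 of the 36 genes, was the lowest for Ccnd2. The rise was 1.36 ± 0.25 in KO (adjusted p = 1.4e-04, 2.56-fold) and 0.78 ± 0.27 in WT (adjusted p = 0.032). Without the 7 libraries with other tissue markers it was 1.26 in KO (adjusted p = 4.5e-05) and 0.36 in WT (adjusted p = 0.44), and the part of those tissues in the WT value was not tested further. Ccne1, cyclin E1, rose by 0.40 ± 0.13 in KO (adjusted p = 0.020), from 3.81 to 4.59 (median 4.36) after oil to 4.12 to 5.25 (median 4.65) after CCl4, and differed by 0.20 ± 0.13 in WT (adjusted p = 0.28). Ccne2, cyclin E2, differed by 0.44 ± 0.19 in WT (adjusted p = 0.095) and by 0.31 ± 0.18 in KO (adjusted p = 0.23).

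Cyclin D1, Ccnd1, did not pass in either genotype, and its values fell into separate sets of libraries. In the 6 oil libraries with Y-linked expression it was 6.10 to 6.29 in WT and 6.60 to 6.89 in KO, and in the other oil libraries 7.60 to 8.10 in WT and 7.47 to 8.29 in KO. Ccnd1 was the only one of the 36 genes whose values did not overlap between these 6 and the other 12 oil libraries. That comparison was made after the values were seen, and the share of all genes that separate in this way was not counted. After CCl4 it was 5.72 in KO library 5 and 6.27 in WT library 3, the libraries lowest in hepatocyte markers (8.17 and 8.29, medians 10.80 and 10.73), and 7.88 to 8.47 in the other 16. CCl4 minus oil was 0.77 ± 0.35 in WT (adjusted p = 0.10) and 0.38 ± 0.33 in KO (adjusted p = 0.44). Without the 6 libraries with Y-linked expression the differences were 0.16 and 0.03 (adjusted p = 0.77 and 0.97). Without all 10 libraries in doubt they were 0.39 and 0.34 and passed (adjusted p = 0.030 and 0.037), so the call for Ccnd1 rested on which libraries were used.

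Of the mitotic cyclins and the CDK1 module, 2 of 4 rose in KO and 1 of 4 in WT, beside 13.4% and 13.2% of all genes. Cdk1, the kinase that cyclins A and B activate, was 3.63 to 4.24 (median 3.93) in WT after oil and 3.98 to 4.90 (median 4.41) after CCl4. In KO it was 3.20 to 4.50 (median 3.89) after oil and 4.12 to 5.33 (median 4.67) after CCl4, and only oil library 10 reached into the CCl4 range. It rose by 0.52 ± 0.16 in WT (adjusted p = 0.020) and 0.77 ± 0.16 in KO (adjusted p = 3.7e-04). Ccna2, cyclin A2, was 3.81 to 4.66 (median 3.96) in KO after oil and 4.21 to 5.77 (median 5.06) after CCl4, a rise of 0.86 ± 0.21 (adjusted p = 0.0021) seen in 9 of 9 libraries. In WT, where CCl4 library 9 was lower (3.34) than any oil library, Ccna2 ranged up to 5.39 and differed by 0.49 ± 0.22 (adjusted p = 0.094). Ccnb2, cyclin B2, differed by 0.48 ± 0.22 in KO (adjusted p = 0.10) and 0.17 ± 0.23 in WT (adjusted p = 0.61). The phosphatase Cdc25c, which activates CDK1, differed by 0.09 ± 0.10 in KO and -0.10 ± 0.11 in WT, the one negative value among the 36 genes in WT.

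The mitotic kinases and checkpoint proteins were the group in which KO and WT calls lay furthest apart, with 9 of 9 rising in KO and 2 of 9 in WT. Of all genes 13.4% rose in KO and 13.2% in WT. The difference between genotypes was called for none of these 9. Bub1b (BubR1, which holds back the anaphase-promoting complex until chromosomes are attached) was 3.46 to 3.99 (median 3.68) in KO after oil and 4.10 to 4.78 (median 4.34) after CCl4. It was the 1 gene of the 36 whose KO groups did not overlap, where 0.203% of all genes were higher and 0.112% lower after CCl4 without overlap. In WT it ran from 3.50 to 4.00 (median 3.66) after oil and from 3.69 to 4.30 (median 4.08) after CCl4, and in WT no gene of the 36 was free of overlap, where 2.8% of all genes were higher and 0.851% lower in that way. Bub1b rose by 0.64 ± 0.09 in KO (adjusted p = 2.9e-06), the lowest adjusted p among the 36 genes, and by 0.33 ± 0.09 in WT (adjusted p = 0.010). Without the 2 libraries against their labels Cdk1, Mad2l1 and Top2a also separated in KO, where 5.0% of all genes were higher without overlap. In WT 0 of the 36 did, where 5.41% of all genes were higher in that way. Without the 10 libraries in doubt it was 6 of the 36 in KO and 0 in WT, beside 7.29% and 7.69% of all genes.

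Mad2l1, the checkpoint protein MAD2 that binds Cdc20 at unattached kinetochores, was 3.75 to 4.37 (median 4.08) in WT after oil and 4.32 to 5.52 (median 4.51) after CCl4. In KO it was 3.84 to 4.67 (median 4.15) after oil and 4.54 to 5.54 (median 4.95) after CCl4. Both pairs of groups overlapped only at their edges, and Mad2l1 rose by 0.62 ± 0.14 in WT (adjusted p = 0.0015) and 0.81 ± 0.13 in KO (adjusted p = 2.2e-05). Aurka, the kinase of spindle poles, was 3.66 to 4.68 (median 4.21) in KO after oil and 4.34 to 5.33 (median 4.90) after CCl4, a rise of 0.70 ± 0.15 (adjusted p = 6.9e-04). In WT its values were 3.92 to 4.60 after oil and 3.82 to 5.11 after CCl4, with a difference of 0.29 ± 0.16 (adjusted p = 0.17). The other 6 of the group rose in KO by 0.37 for Birc5 (survivin), 0.50 for Aurkb, 0.52 for Bub1, 0.52 for Melk, 0.53 for Ttk (the kinase MPS1) and 0.58 for Plk1, with adjusted p from 3.5e-04 to 0.046. Aurkb and Birc5 belong to the chromosomal passenger complex, Bub1 and Ttk to the spindle checkpoint, and Plk1 is a kinase of spindle poles and kinetochores. In WT these 6 differed by 0.13 to 0.36 and were not called.

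Anaphase onset needs the anaphase-promoting complex with its activator Cdc20 and the conjugating enzyme UBE2C. Ube2c was 3.81 to 5.76 (median 4.63) in KO after oil, with library 10 highest, and 4.81 to 5.97 (median 5.22) after CCl4, and rose by 0.67 ± 0.19 (adjusted p = 0.0091). In WT it was 3.83 to 5.00 (median 4.64) after oil and 4.14 to 5.51 (median 4.95) after CCl4, a difference of 0.37 ± 0.20 (adjusted p = 0.18). Cdc20 differed by 0.31 ± 0.13 in KO (adjusted p = 0.071) and 0.07 ± 0.13 in WT (adjusted p = 0.71).

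Kinetochore, spindle and kinesin proteins rose in 6 of 7 cases in KO and 2 of 7 in WT, beside 13.4% and 13.2% of all genes. Nusap1, which binds spindle microtubules near chromosomes, was 3.14 to 3.80 (median 3.56) in WT after oil and 3.68 to 4.98 (median 4.19) after CCl4. In KO it was 3.44 to 4.67 (median 3.65) after oil and 3.93 to 5.30 (median 4.67) after CCl4. All 18 CCl4 libraries lay above their oil mean, and Nusap1 rose by 0.68 ± 0.19 in WT (adjusted p = 0.0083) and 0.78 ± 0.18 in KO (adjusted p = 0.0013). Kif11, the motor that pushes spindle poles apart, was 3.44 to 4.09 (median 3.73) in KO after oil and 3.70 to 5.26 (median 4.41) after CCl4, a rise of 0.78 ± 0.17 (adjusted p = 8.0e-04). Its WT values of 3.23 to 3.91 after oil and 3.43 to 4.89 after CCl4 gave a difference of 0.41 ± 0.18 (adjusted p = 0.090). Tpx2, which activates Aurora A on spindle microtubules, rose by 0.48 ± 0.18 in WT (adjusted p = 0.043) and 0.62 ± 0.17 in KO (adjusted p = 0.0059), in KO from 3.36 to 4.30 (median 3.77) after oil to 3.54 to 5.03 (median 4.50) after CCl4. Kif2c, Cenpe and Hmmr, which act on kinetochore microtubules and the spindle, rose by 0.48, 0.39 and 0.44 in KO and were not called in WT (0.21, 0.33 and 0.37). Cenpf, of the outer kinetochore, differed by 0.21 ± 0.09 in KO (adjusted p = 0.095) and 0.10 ± 0.10 in WT.

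Proteins of the spindle midzone and of cytokinesis rose in 5 of 5 cases in KO and 2 of 5 in WT. The shares of all genes were 13.4% and 13.2%. Ect2, the exchange factor that activates RhoA at the division plane, was 3.84 to 4.66 (median 4.40) in WT after oil and 4.48 to 6.31 (median 5.14) after CCl4. In KO it was 3.99 to 5.10 (median 4.42) after oil and 4.76 to 6.09 (median 5.59) after CCl4. Its rise was 0.94 ± 0.22 in WT (adjusted p = 0.0023) and 0.88 ± 0.21 in KO (adjusted p = 0.0018), and Ect2 was 1 of 3 genes, with Ccnd1 and Ccne2, whose difference was smaller in KO than in WT. Prc1, which bundles midzone microtubules, was 3.42 to 4.11 (median 3.65) in WT after oil and 3.71 to 5.32 (median 4.33) after CCl4, and in KO 3.26 to 4.32 (median 3.82) and 3.85 to 5.34 (median 4.83). It rose by 0.67 ± 0.21 and 0.86 ± 0.20 (adjusted p = 0.019 and 0.0013). Kif23, a subunit of centralspindlin, rose by 0.64 ± 0.16 in KO (adjusted p = 0.0033), from 3.26 to 4.09 (median 3.69) after oil to 3.60 to 5.17 (median 4.17) after CCl4. Its highest WT value, 4.85, was in CCl4 library 3, and the WT difference was 0.40 ± 0.17 (adjusted p = 0.084). Anln (anillin) and Kif20a (MKLP2) rose by 0.62 and 0.53 in KO, and differed by 0.41 and 0.36 in WT without a call.

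**Figure D3:**
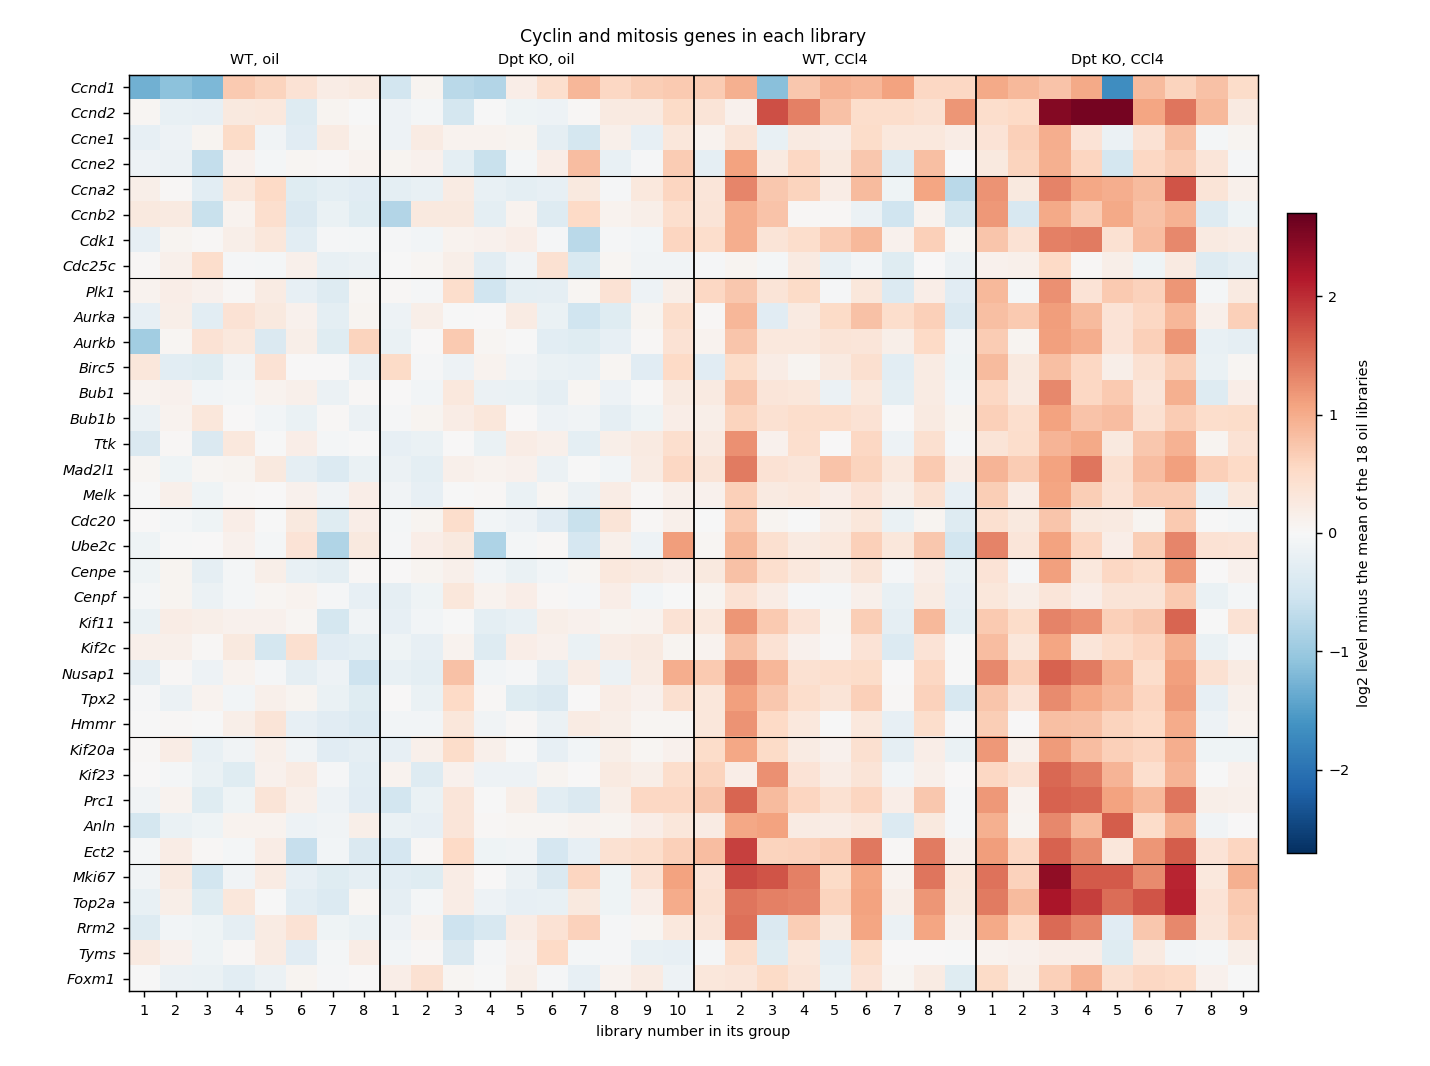
Log2 level of each of the 36 genes (rows, by role, lines between roles) in each of the 36 libraries (columns, by group) minus the mean of the 18 oil libraries. WT CCl4 libraries 7 and 9 and KO CCl4 library 8 stay near the oil colours, and KO CCl4 libraries 3, 7 and 4 and WT CCl4 library 2 are the most raised (means over the 36 genes of 5.16, 5.02, 4.89 and 4.89).

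Libraries of the CCl4 groups differed widely from each other, and mostly in the same direction for many genes. The mean level over the 36 genes was 3.80 to 4.10 in WT after oil and 3.84 to 4.37 in KO after oil, where library 10 was the highest. After CCl4 it ran from 3.92 to 4.89 (median 4.40) in WT and from 4.07 to 5.16 (median 4.61) in KO. WT CCl4 library 2 was highest of its group in 28 genes, KO CCl4 library 3 in 17 and KO CCl4 library 7 in 7. At the other end, WT CCl4 library 9 exceeded the mean of the oil libraries in 12 genes and KO CCl4 library 8 in 18. The SD between libraries was larger after CCl4 than after oil in 32 of 36 genes in each genotype. The median ratio of the SDs was 1.9 in WT and 1.59 in KO, beside 1.23 and 1.02 over all genes, and no test was made of these ratios.

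Probe sets of a gene did not always move together. In KO after CCl4 the difference was positive in 7 of 7 probe sets of Ccnd2, 13 of 13 of Nusap1, 22 of 22 of Ect2, 15 of 15 of Rrm2 and 31 of 32 of Top2a. It was positive in 21 of 24 of Bub1b, 6 of 9 of Cdk1 and 5 of 7 of Ube2c. With the brightest probe set of each gene in place of the mean, 8 of the 36 genes rose in WT and 7 in KO, and Aurka, Melk, Plk1 and Ube2c turned negative in KO. With the median of a gene's probe sets, 7 rose in WT and 26 in KO. Shares of all genes that rose under these summaries are not given here, so the counts have no background beside them. The count in KO thus depended on how probe sets were summarised.

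KO minus WT after CCl4 was positive in 34 of the 36 genes (median 0.29), beside 50.5% of all genes. Many of the 36 moved together by library, so their signs are not separate observations. In limma 0 of the 36 were called, where 0.0519% of all genes were (0.0346% higher, 0.0173% lower in KO). No gene of the 36 was free of overlap between KO and WT, where 0.013% of all genes were higher and 0.013% lower in that way. At an unadjusted p under 0.05 there were 12, beside 8.43% of all genes. The lowest adjusted p was that of Bub1b, at 0.34 ± 0.09 (adjusted p = 0.18), higher than the WT mean in 9 of 9 KO libraries. The largest differences were in Ccnd2 (0.60 ± 0.26, adjusted p = 0.50) and Top2a (0.54 ± 0.21, adjusted p = 0.43), each above the WT mean in 6 of 9. Intervals at 95% were 0.07 to 1.13 for Ccnd2, 0.11 to 0.97 for Top2a and -0.08 to 0.91 for Mki67, so these arrays leave a wide range for each difference. Beside these values, markers of some other cells stood higher in the same KO libraries, and those of most cell lists were mixed. Macrophage markers were positive in 10 of 10 (median 0.65, 1 called, group ranges of the list mean 5.51 to 7.06 in WT and 6.54 to 7.98 in KO), and neutrophil and granulocyte precursor markers in 8 of 8 (median 0.63, 0 called, 7 at an unadjusted p under 0.05, ranges 3.46 to 3.97 and 3.74 to 5.07). Kupffer cell markers were positive in 5 of 5 (median 0.36). Stellate cell markers were positive in 5 of 8 (0.29), duct in 5 of 7 (0.16) and B and plasma cell in 4 of 7 (0.12). T and NK cell markers were positive in 5 of 8 (0.06), and hepatocyte in 5 of 9 (0.02). For endothelial markers it was 4 of 8 (-0.017), for erythroid 3 of 6 (-0.025) and for periportal hepatocyte 4 of 9 (-0.086). Muscle and pancreas markers lay lower in KO (medians -1.89 and -1.59). The part of any of these in the genotype values was not tested.

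After oil, KO minus WT was positive in 28 genes (median 0.08), beside 49.7% of all genes. Of the 36, 0 were called, where 0.0346% of all genes were (0.00864% higher, 0.0259% lower in KO). At an unadjusted p under 0.05 there were 0, beside 3.79% of all genes. None of the 36 was free of overlap, where 0.00864% of all genes were higher and 0.0216% lower in that way. Without the 2 libraries against their labels the median was 0.03, with 21 positive. The interaction, the CCl4 difference in KO minus that in WT, was positive in 33 genes (median 0.20), beside 52% of all genes. It was called for 0 of the 36 and for 0% of all genes, and 1 of the 36, Bub1b at 0.31 ± 0.13, had an unadjusted p under 0.05 (adjusted p = 0.85), beside 5.85% of all genes. These comparisons share libraries. More genes being called in KO than in WT is thus not shown to be a difference between genotypes.

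Genes that work beside these 36 were followed as lists. The lists were chosen with earlier results of these data known, so their counts are not independent of the data. Over all genes 13.2% rose and 11.3% fell in WT, and 13.4% rose and 9.89% fell in KO. Of 20 genes of replication licensing and the fork, 14 rose and 1 fell in WT, and 16 rose and 0 fell in KO. The helicase subunits Mcm6, Mcm5 and Mcm2 changed most, by 1.61, 1.23 and 1.35 in WT and 2.00, 1.81 and 1.65 in KO, whereas Mcm10 fell by 0.85 in WT (adjusted p = 0.0049). Of 31 other kinetochore, condensin and spindle genes, 9 rose and 1 fell in WT and 19 rose and 1 fell in KO. Smc2 of condensin rose by 0.71 in WT and 0.86 in KO, and the kinetochore genes Ndc80 and Nuf2 rose by 0.58 and 0.52 in WT and 0.84 and 0.82 in KO. Among 12 subunits of the anaphase-promoting complex, 7 rose in WT and 6 in KO, led by Anapc4 (0.64 and 0.51), Anapc10 (0.48 and 0.37) and Cdc16 (0.33 and 0.36).

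Brakes and regulators are set beside 24.5% of all genes called in WT and 23.3% in KO. Of 13 inhibitors of cyclin-dependent kinases and other brakes, 5 rose and 1 fell in each genotype. Cdkn1a, the kinase inhibitor p21 that p53 induces, rose by 2.18 ± 0.24 in WT (adjusted p = 2.9e-07) and 1.65 ± 0.23 in KO (adjusted p = 2.4e-06). Rbl1, the pocket protein p107, rose by 1.22 and 1.27, and Btg2, an antiproliferative gene, rose by 0.81 in WT (adjusted p = 0.048) and differed by 0.70 in KO (adjusted p = 0.074). Of 13 other cyclins, kinases and their activators, 5 rose and 1 fell in WT and 6 rose in KO, led by Ccng1, a p53 target (1.07 and 0.58), Skp2, of the ligase that destroys p27 (0.44 and 0.90), and Cdk6 (0.55 and 0.43). Of 14 E2F, MYB and DREAM factors, 3 rose and 0 fell in WT and 5 rose and 1 fell in KO. The calls of this list in WT lay near the share of all genes called. Myc rose by 0.99 and 0.95, Tfdp1, the E2F partner DP1, by 0.50 and 0.51, and E2f1 by 0.49 in KO, with 0.31 in WT not called (adjusted p = 0.13). Median log2 fold changes of the 6 lists lay between 0.06 and 0.45 in WT and between 0.15 and 0.70 in KO, beside -0.04 for all genes.

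Replication genes did not track the cyclin and mitosis genes in every library. Their mean was 4.20 to 4.38 in the oil libraries other than KO 10, which read 5.15. It was 5.05 in KO CCl4 library 8, 4.76 in WT CCl4 library 7 and 4.61 in WT CCl4 library 9, above all of those oil libraries, although the means over the 36 genes were 4.07, 3.96 and 3.92, inside the oil range. In WT CCl4 libraries 1 and 3 and KO CCl4 library 5 the replication means were the lowest of their CCl4 groups, at 4.43, 4.51 and 4.55, with means of the 36 genes of 4.25, 4.42 and 4.52. Those 3 include the library with low Dpt and both with low periportal markers. These are single libraries picked out after their values were seen, and nothing was tested over them.

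**Figure D4:**
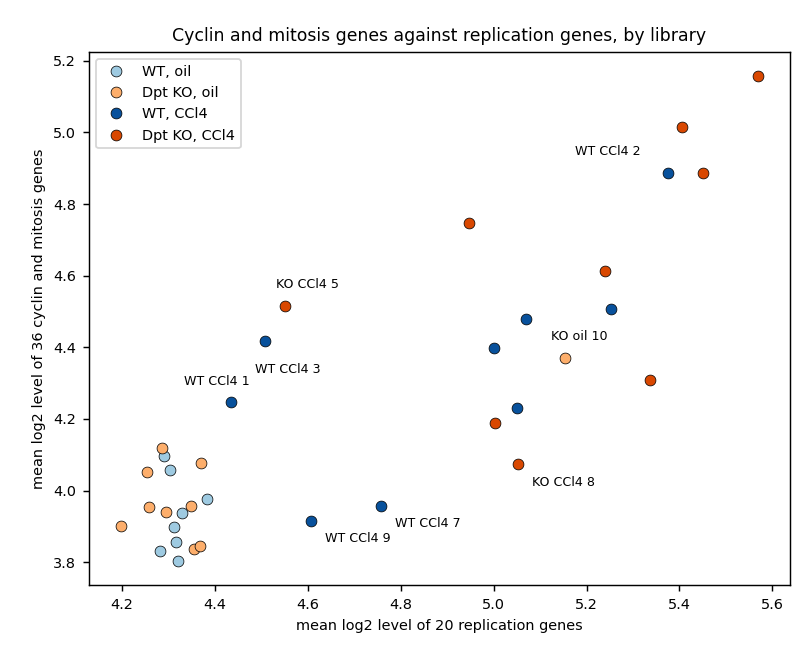
Mean log2 level of the 36 cyclin and mitosis genes (y axis) against the mean of 20 replication genes (x axis), 1 point per library, coloured by group. Oil libraries other than KO oil 10 lie at 4.20 to 4.38 on the x axis, and KO CCl4 8 and WT CCl4 7 and 9 are raised on the x axis with y values of 4.07 or less.

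Calls were also set beside the promoter letters. Of the 16 genes with CHR and CCAAT letters, 6 rose in WT and 13 in KO. Of the 11 with a window that lacked 1 or both, 2 rose in WT and 10 in KO, and of the 9 without a window, 2 and 6. The 6 that held neither, which are among those 11, gave 2 in WT and 5 in KO. Over all genes 13.2% rose in WT and 13.4% in KO. Ccnb2, Cdc20 and Cenpf held both letters and were not called in KO, while Mad2l1 and Nusap1 held neither and rose in both genotypes. These are counts of members, and no test was made of them.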

How the data were processed

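Total RNA of 36 mouse livers was measured on Affymetrix whole-transcript arrays, 1 array per library. The deposited values are log2 signals per probe set, made by the authors with RMA per the submitters' processing notes. Array software and genome build: not given in the sources used here. A second table with 36 columns that match no sample name was not used here. Of 269479 probe sets, 233753 carry a single symbol, and averaging these gave 23141 genes (median 8 probe sets a gene, 5 to 44 for the members). Symbols were updated for 2208 genes with RefSeq names on GRCm38.p6, which also gave the promoter windows. No filter on low values was used.

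Groups came from the sample titles. All genes and 36 arrays entered 1 fit with a coefficient for each group (limma 3.58.1, R 4.3.3), with two-sided tests. A gene rose, fell or was called at a Benjamini-Hochberg adjusted p under 0.05 over all genes of a contrast. Errors are standard errors. The labels do not say whether arrays of a group share a batch, so p-values measure the spread between these arrays, whose number limits precision. Whether replicate numbers pair libraries is not stated. Of 51 pairs with the same number, 14 correlated above 0.1 (range -0.28 to 0.33). The highest were KO with WT within a treatment, at 0.33 (oil, number 3) and 0.32 (CCl4, number 1). Pairs with different numbers were not compared, so these values cannot settle whether numbers pair libraries.

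Every member measured is named. Full values are given for up to 3 called members of each role by size of change in KO, and of each pathway list the 3 largest called changes are named. The members and lists were chosen with earlier results of these data known. The steps were tested on simulated data. Python 3.11.15, pandas 2.3.3 and matplotlib 3.10.9 were used for tables and figures. Alternatives were other summaries of probe sets, array centring, a mean of at least 4, another variance prior, fits of the compared groups alone, a replicate block, and fits without libraries in doubt or without each library in turn. Non-overlap counts without libraries in doubt, and Ccnd1 by Y-linked expression, were added after the values were seen.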

Additional observations from a re-analysis of the deposited data

Results flagged for a closer look

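In 8 of 144 sets of 1 gene in 1 group, 1 library stood apart by Dixon's test at the 95% level, which chance gives in about 1 set of 20. Cyclin D1, Ccnd1, read 5.719 in KO CCl4 library 5 (others 7.884 to 8.422) and 6.272 in WT CCl4 library 3 (others 7.961 to 8.473), the libraries with the lowest periportal hepatocyte markers. Top2a read 4.596 in KO oil library 10 (others 3.367 to 3.868), whose Dpt level goes against its label. WT CCl4 library 2 was high for the checkpoint genes Ttk, at 4.787 (others 3.408 to 4.101), and Mad2l1, at 5.521 (others 4.315 to 4.883). Low single values were Ccne2 in WT oil library 3 at 2.955 (others 3.459 to 3.721), Cdk1 in KO oil library 7 at 3.2 (others 3.85 to 4.496) and Ube2c in WT oil library 7 at 3.825 (others 4.518 to 5.001). What set these values apart was not tested.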

How the results depend on the processing

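The count of genes that rose after CCl4 lay between 6 and 12 in WT and between 7 and 31 in KO over the alternatives that kept or dropped sets of libraries or changed the processing, beside 10 and 29, and 0 fell. In KO it was 26 with the median of a gene's probe sets, 7 with the brightest probe set of each gene, 16 with the probe sets above the median of all probe sets, and 17 with genes of a mean of at least 4, where 20 of the 36 were tested. In WT it was 6 without the 6 libraries with Y-linked expression. Apart from array centring, counts over all genes under the alternatives are not given here, so these counts have no background beside them. The brightest probe set turned the KO difference of Aurka to -0.057, Melk to -0.26, Plk1 to -0.52 and Ube2c to -0.10. The cause was not tested. Leaving out each library gave 8 to 15 in WT, the highest without WT CCl4 library 7, and 25 to 32 in KO, the lowest without KO CCl4 library 3. Both genotype comparisons and the interaction gave 0 calls in each of these fits except 1: with the replicate block, Bub1b was called in KO against WT after CCl4 (1 gene, adjusted p = 0.028), and the block gave 12 in WT and 29 in KO. Whether numbers pair the libraries is not stated and was not settled here, so this block has no known basis. Centring the arrays left 9 and 24 rises and turned the split over all genes from 3046 rising and 2617 falling to 2357 and 5379 in WT, and from 3098 and 2289 to 2499 and 4729 in KO. With 16 genes at a mean under 4, below every array's median, low signal limits what the arrays show of them.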
